A study of Mus musculus with 12 samples.

Results

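The 36 genes described here encode complement and coagulation factors that hepatocytes make and secrete into plasma. They were taken by symbol from a list and matched to the Ensembl identifiers of the count files, where they are 36 of 40551 genes. All 36 were among the 15070 genes with enough reads for testing, and the lowest count of any of them in any library was 681 reads, for C6. Together they took 4.12 to 5.93% of all gene counts in a library.

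Total RNA-seq was performed on 12 mouse livers, 3 of each of 4 genotypes, with 28826367 to 45266387 reads on genes per library. WT livers carried both genes. Mcl1Δhep livers, labelled Mcl1 KO, came from Mcl1 floxed mice crossed with Alb-Cre mice, in which the albumin promoter drives Cre, so that the deletion concerns hepatocytes and leaves Mcl1 in the other cells of the liver. Sting1-/- livers came from Sting1 knockout mice, whose knockout the study checked by Western blot, and kept Mcl1. The cross of both lines gave Mcl1Δhep Sting1-/- livers, labelled Mcl1 Sting1 DKO. The WT and Mcl1Δhep mice of the transcriptome were 2 months old, and the study used mice of both sexes and, for all lines but Sting1-/-, of 2 and 12 months. The age of the Sting1-/- and Mcl1Δhep Sting1-/- livers sequenced and the sex of each mouse are not given in the sources used here. The study's methods call the WT, Mcl1Δhep and Mcl1Δhep Sting1-/- samples of its expression plots biological replicates. The sources used here do not say this of the Sting1-/- libraries. They are counted here as 3 livers, though their spread may be technical.

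Complement is a cascade of plasma proteins that marks and lyses microbes. It starts from antibody bound by C1q, from sugars bound by mannose-binding lectins or from spontaneous turnover of C3, and these routes meet at enzymes, the convertases, that split C3 and C5. C5 fragments then recruit C6, C7, C8 and C9 into a pore, the membrane attack complex. Coagulation is a parallel cascade of serine proteases that ends in thrombin, which turns fibrinogen into fibrin, and plasmin dissolves the clot. Most of these proteins come from hepatocytes, many clotting proteases need vitamin K to be carboxylated before secretion, and low plasma levels are a classical sign of a failing liver.

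Several libraries stood apart in ways that touch the results below. Reads from the Y-linked genes Ddx3y, Eif2s3y, Kdm5d and Uty were present in WT 2, WT 3 and Mcl1Δhep Sting1-/- 1, at 142 to 147 CPM in sum (counts scaled to library size), and were at most 0.201 CPM in the other 9 libraries. All 3 Mcl1Δhep and all 3 Sting1-/- libraries were thus without Y-linked reads, and WT 1 was the WT library that matched them. Small structured RNAs took 0.172 to 0.369% of counts in WT, 0.283, 2.37 and 1.36% in Mcl1Δhep 1, 2 and 3, and 0.431 to 0.897% in the other groups. Skeletal muscle markers took 0.130% of counts in Mcl1Δhep 3 and at most 0.000612% elsewhere. Genes of the acute phase were high in WT 2, where Saa1, serum amyloid A, was at 1474 CPM against 25.9 and 59.4 CPM in WT 1 and 3. Mcl1 itself was at 98.6 ± 7.36 CPM in WT (SD, n = 3), 29.0 ± 4.58 in Mcl1Δhep, 22.3 ± 3.96 in Mcl1Δhep Sting1-/- and 81.8 ± 7.20 in Sting1-/-, with no overlap between deleted and intact groups. Sting1 was at 4.75 ± 1.17 CPM in Mcl1Δhep and 2.26 ± 0.321 in Mcl1Δhep Sting1-/-, without overlap between libraries. It was at 2.36 ± 0.219 CPM in WT and 1.86 ± 0.779 in Sting1-/-, which overlapped, and the libraries of Mcl1Δhep Sting1-/- overlapped those of WT too. Its counts were thus lower in Mcl1Δhep Sting1-/- than in Mcl1Δhep, but in neither background clearly below WT. They do not by themselves check the Sting1 label.

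Markers of hepatocytes were high in every library, and the list of 16 took 11.6 to 18.1% of counts. In Mcl1Δhep against WT, 0 of these 16 were higher and 1, Apoa2, was lower, and their median log2 fold change was -0.31. Of the macrophage and Kupffer cell markers 6 of 10 were higher, with 0.0951 to 0.121% of counts in Mcl1Δhep and 0.0456 to 0.0694% in WT. Of the stellate cell and fibroblast markers 6 of 9 were higher, with 0.102 to 0.116% of counts against 0.0422 to 0.0699%. The part of these cell populations in the changes of the 36 genes was not tested, and in whole liver fewer cells of a type and less RNA per cell cannot be told apart.

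Levels differed widely between the 36 genes. On the TPM scale, counts are divided by the summed length of all annotated exons of a gene. The highest level in WT was that of C3, the protein on which all complement routes converge, with 7025 ± 1598 TPM (SD, n = 3). The fibrinogen chains Fga, Fgg and Fgb followed with 6168 ± 681, 5616 ± 404 and 4646 ± 236 TPM, and then Vtn, which encodes vitronectin, with 3701 ± 372 TPM. C3 and Fga did not differ beyond their SD, and the same was true of Fga and Fgg. Prothrombin, F2, was at 1679 ± 102 TPM and plasminogen, Plg, at 2549 ± 145 TPM. Lowest on this scale were Pros1, encoding the anticoagulant cofactor protein S, with 56.5 ± 7.70 TPM and Masp1, a protease of the lectin pathway, with 49.8 ± 1.77 TPM, and these neighbours did not differ beyond the SD of Pros1. The order depends on the exon lengths used, which were 13632 bases for Masp1. By CPM, Masp1 was above Pros1 in WT (189 ± 15.4 against 99.4 ± 14.4).

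**Figure D1:**
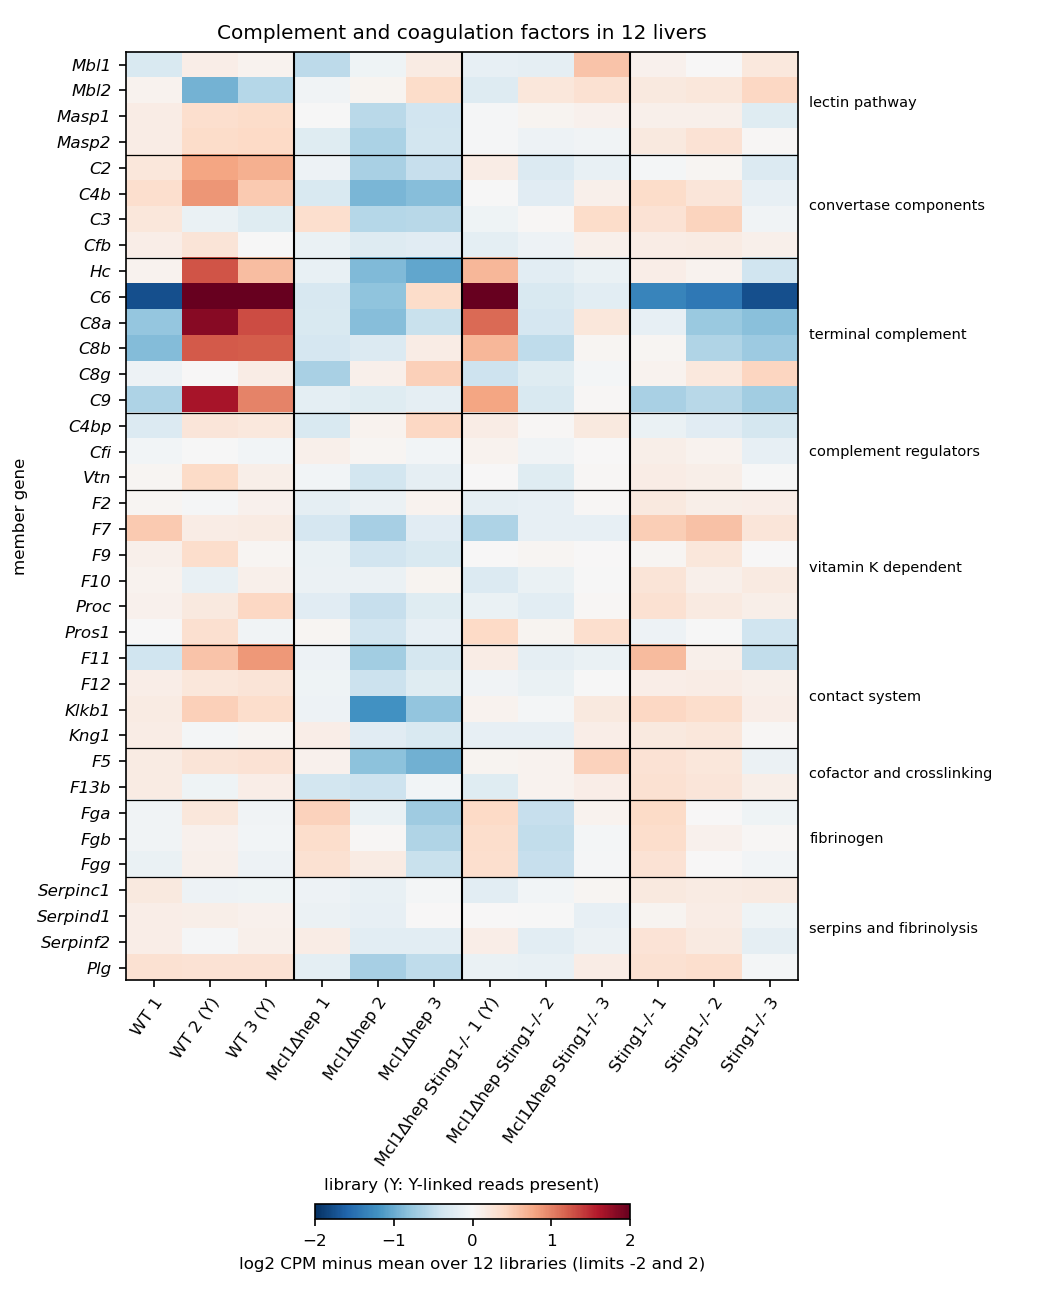
Each row is 1 of the 36 genes and each column 1 liver library, and color gives the log2 CPM minus the gene's mean over the 12 libraries, with the scale ending at -2 and 2. Mcl1Δhep 2 and 3 are below the mean for most genes, and C6, C8a, C8b and C9 are high in the 3 libraries marked Y, which hold Y-linked reads.

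The first comparison asks what the loss of Mcl1 in hepatocytes did to these factors while Sting1 was intact. In Mcl1Δhep against WT livers, 12 of the 36 genes were lower and 0 were higher at an adjusted p under 0.05 (edgeR quasi-likelihood test on the counts, Benjamini-Hochberg over all 15070 genes). That is 33.3% of the 36 genes, where 20.2% of all genes tested were called in either direction and 9.43% were called lower. The log2 fold change was negative for 31 of the 36 genes and for 50.3% of all genes, with a median of -0.36 for the 36 genes and -0.0049 for all genes. The 16 hepatocyte markers had a similar median of -0.31 in this comparison, and a list of 14 acute phase genes had -0.51. The 12 genes lie in all but 3 of the role groups into which the 36 were divided: fibrinogen, the complement regulators, and the pair F5 and F13b had none. In 15 of the 36 genes all Mcl1Δhep libraries lay below all WT libraries, against 17.1% of all genes, and in 0 of them above, against 16.2%.

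Of the 4 lectin pathway genes both proteases fell and neither lectin was called. Masp2, the protease that cleaves C4 and C2 once a lectin has bound sugar, was at 226, 265 and 269 CPM in WT 1, 2 and 3 and at 173, 132 and 159 CPM in Mcl1Δhep 1, 2 and 3. The groups did not overlap, and the log2 fold change was -0.71 ± 0.14 (SE, edgeR adjusted p = 0.00772). Masp1, which activates Masp2, was at 172, 196 and 200 CPM in WT and 153, 106 and 118 CPM in Mcl1Δhep, with a log2 fold change of -0.59 ± 0.16 (edgeR adjusted p = 0.0270). All Mcl1Δhep values of Masp1 were again below those of WT, by the least in Mcl1Δhep 1. The lectin genes Mbl1 and Mbl2 had log2 fold changes of -0.11 and 0.55, with edgeR adjusted p = 0.774 and 0.128, and Mbl2 had the largest positive value of the 36 genes. Of the exon bases of Masp2, 60.3% overlap those of Tardbp on the opposite strand, a gene at 28.5 CPM in WT, and whether counting used strand is not given in the sources used here.

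The convertase components C2 and C4b fell, while C3 and Cfb were not called. C4b, whose product C4 carries the classical and lectin C3 convertase, was at 1810, 2652 and 2059 CPM in WT and at 1157, 765 and 798 CPM in Mcl1Δhep. No values overlapped, and the log2 fold change was -1.26 ± 0.22 (edgeR adjusted p = 0.00426), the smallest adjusted p of the 36 genes. C2, the protease of the same convertase, was at 150, 221 and 209 CPM in WT and 119, 81.5 and 92.6 CPM in Mcl1Δhep, with a log2 fold change of -0.99 ± 0.20 (edgeR adjusted p = 0.00726). Its groups were apart too, with WT 1 the lowest WT library. Cfb, the matching protease of the alternative pathway, had a log2 fold change of -0.34 ± 0.14 (edgeR adjusted p = 0.0994). C3 was at 12090, 9412 and 8723 CPM in WT and 13030, 6951 and 7042 CPM in Mcl1Δhep, so that Mcl1Δhep 1 exceeded every WT library and the other 2 fell below every WT library (log2 fold change -0.16 ± 0.26, edgeR adjusted p = 0.686). C4b has a near-identical copy, C4a, at 7.85 CPM in WT, and C2 and Cfb share exons on the same strand with the read-through gene Gm20547, at 2003 CPM in WT and 1539 in Mcl1Δhep, so reads of each cannot be assigned with certainty.

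Of the 6 terminal complement genes Hc and C8a were called lower, and C6, C9 and C8b had large changes that did not pass the test. Hc, which encodes C5, was at 937, 2143 and 1371 CPM in WT and at 810, 482 and 436 CPM in Mcl1Δhep, with a log2 fold change of -1.37 ± 0.35 (edgeR adjusted p = 0.0199). The groups did not overlap, but WT 1 was closer to Mcl1Δhep 1 than to WT 2. C8a, a chain of C8, was at 260, 1576 and 1099 CPM in WT and 360, 248 and 328 CPM in Mcl1Δhep, with a log2 fold change of -1.65 ± 0.53 (edgeR adjusted p = 0.0479). Here WT 1 lay within the Mcl1Δhep range, and WT 2 and WT 3 lay above it.

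The same 2 WT libraries were high for C6 and C9. C6, the first protein to join C5b in the pore, was at 18.0, 447 and 343 CPM in WT and 48.4, 34.6 and 78.1 CPM in Mcl1Δhep, with a log2 fold change of -2.33 ± 0.91 (edgeR adjusted p = 0.0874). WT 1 was below every Mcl1Δhep library, and the other WT libraries were far above them. C9, which polymerizes to form the wall of the pore, was at 253, 1227 and 775 CPM in WT and 340, 330 and 344 CPM in Mcl1Δhep (log2 fold change -1.15 ± 0.43, edgeR adjusted p = 0.0770). WT 2, the library with high acute phase genes, was the highest WT library for Hc, C6, C8a, C8b and C9, and the part of this in the changes was not tested. Without WT 2 the log2 fold changes of Hc, C8a and C9 were -1.01, -1.13 and -0.61, and edgeR called none of the 3. C8b, another chain of C8, was at 174, 748 and 733 CPM in WT and 251, 262 and 351 CPM in Mcl1Δhep. C8b and C8g, the third chain, had log2 fold changes of -0.94 ± 0.46 and 0.028 ± 0.24 (edgeR adjusted p = 0.162 and 0.944).

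None of the 3 complement regulators was called. Vtn, which blocks insertion of the pore, had a log2 fold change of -0.38 ± 0.15 (edgeR adjusted p = 0.0998) with WT and Mcl1Δhep libraries apart. C4bp, a cofactor for the breakdown of C4b, and Cfi, the protease that inactivates C3b and C4b, had log2 fold changes of 0.0082 and 0.065.

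Of the 6 vitamin K dependent factors F7, F9 and Proc fell, while F2, F10 and Pros1 were not called. F7, the protease that starts coagulation with tissue factor, was at 132, 102 and 103 CPM in WT and 73.3, 57.9 and 78.5 CPM in Mcl1Δhep, with a log2 fold change of -0.69 ± 0.18 (edgeR adjusted p = 0.0222). F9, the factor lacking in hemophilia B, was at 192, 228 and 184 CPM in WT and 163, 136 and 144 CPM in Mcl1Δhep (log2 fold change -0.44 ± 0.14, edgeR adjusted p = 0.0385). Proc, which encodes the anticoagulant protein C, was at 466, 503 and 586 CPM in WT and 375, 321 and 371 CPM in Mcl1Δhep (log2 fold change -0.54 ± 0.14, edgeR adjusted p = 0.0228). All 3 genes had every Mcl1Δhep library below every WT library. F2 and F10 had log2 fold changes of -0.11 and -0.068, and Pros1 of -0.26, with edgeR adjusted p = 0.587, 0.757 and 0.290. F7 and F10 lie next to each other on chromosome 8, at 13076002 to 13085809 and 13087293 to 13106676 of GRCm39.

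A list of 6 genes for carboxylation and secretion of clotting factors was followed alongside. Of these 0 were higher and 3 were lower in Mcl1Δhep. Ggcx, the carboxylase that uses vitamin K, was at 151 ± 16.4 CPM in WT and 86.3 ± 22.1 in Mcl1Δhep (SD, n = 3, log2 fold change -0.81 ± 0.23, edgeR adjusted p = 0.0317). Lman1, a cargo receptor that carries F5 and F8 out of the endoplasmic reticulum, had a log2 fold change of -0.57 ± 0.14 (edgeR adjusted p = 0.0174). Furin, a protease that trims proproteins, had -0.79 ± 0.15 (edgeR adjusted p = 0.00617). Vkorc1, which recycles vitamin K, Vkorc1l1 and Mcfd2 were not called, at -0.25, -0.17 and 0.18.

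Of the 4 contact system genes Klkb1 and F12 fell. Klkb1, which encodes plasma prekallikrein, was at 513, 636 and 583 CPM in WT and 426, 198 and 266 CPM in Mcl1Δhep, with a log2 fold change of -0.96 ± 0.24 (edgeR adjusted p = 0.0173). F12, which activates prekallikrein, was at 578, 611 and 624 CPM in WT and 493, 388 and 441 CPM in Mcl1Δhep (log2 fold change -0.45 ± 0.13, edgeR adjusted p = 0.0323). In both, Mcl1Δhep 1 was nearest to WT. F11 had -0.80 ± 0.32 (edgeR adjusted p = 0.0977) with overlapping groups, since WT 1 was at 60.5 CPM, and Kng1, the kininogen that binds prekallikrein and F11, had -0.17 ± 0.16. Of the exon bases of Klkb1, 43.2% belong also to the read-through gene Gm45753 on the same strand, at 441 CPM in WT and 230 in Mcl1Δhep, and Kng1 has a close paralog, Kng2, at 268 CPM in WT.

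Plg was called among the 4 genes for serpins and fibrinolysis. Its product, plasminogen, is the zymogen of the clot-dissolving protease. It was at 2674, 2623 and 2645 CPM in WT and 1892, 1359 and 1521 CPM in Mcl1Δhep, with a log2 fold change of -0.735 ± 0.17 (edgeR adjusted p = 0.0139). All WT libraries were above all Mcl1Δhep libraries. The inhibitors Serpinc1 (antithrombin), Serpind1 (heparin cofactor II) and Serpinf2 (antiplasmin) had log2 fold changes of -0.10, -0.20 and -0.15 and were not called. The cofactor F5 had -0.73 ± 0.25 (edgeR adjusted p = 0.0602) with the groups apart, and F13b, the carrier subunit of the crosslinking factor XIII, had -0.35 ± 0.16 (edgeR adjusted p = 0.129).

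**Figure D2:**
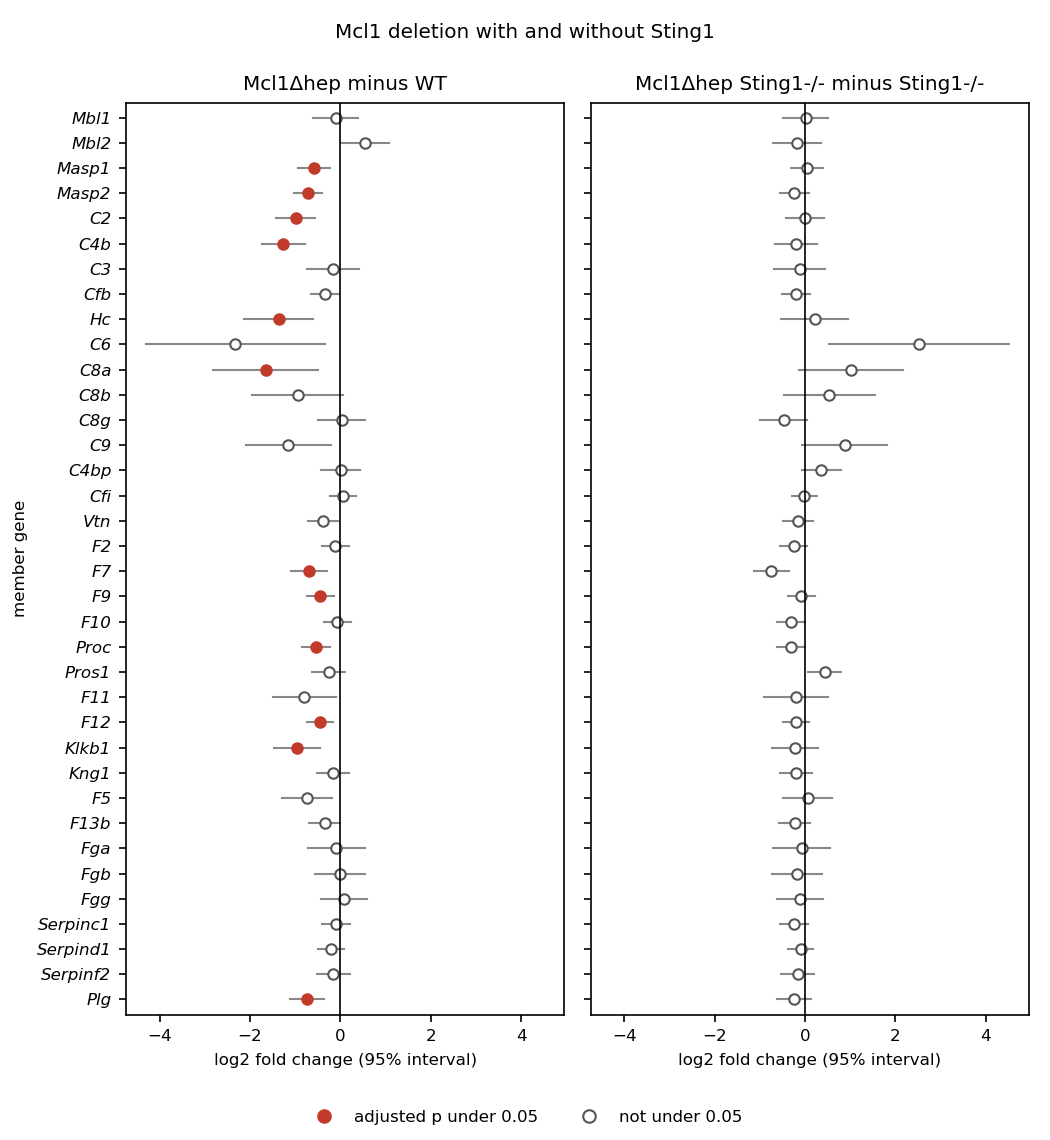
Log2 fold changes of the 36 genes with 95% intervals, for Mcl1Δhep minus WT on the left and Mcl1Δhep Sting1-/- minus Sting1-/- on the right, with filled points where the adjusted p was under 0.05. The 12 filled points are all on the left panel and all below 0, and C6 is at -2.33 on the left and 2.52 on the right.

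The number called depended on which libraries and terms entered the fit, for all genes as for the 36. With Y-linked reads as a term in the edgeR model, 4 of the 36 genes (11.1%) were called, against 10.2% of all genes. They were Masp2 (-0.61), C4b (-1.11), F7 (-0.95) and Plg (-0.79), and the median over the 36 genes was -0.26. Among the 9 libraries without Y-linked reads, in which WT 1 stands alone against 3 Mcl1Δhep libraries and its spread is taken from the other groups, edgeR called 0 of the 36 and 0.0247% of all genes, and 6 of the 36 had an unadjusted p under 0.05. With small structured RNAs as a term (the log2 of their percentage) edgeR called 0 of the 36 and 2.7% of all genes. The median was then -0.293 for the 36 genes and -0.0249 for all genes. Without Mcl1Δhep 2 there were 3 (8.33% against 8.09% of all genes) and without Mcl1Δhep 3 there were 7 (19.4% against 16.7%). Without WT 2 there were 5 (13.9% against 7.99%) and without WT 3 there were 7 (19.4% against 10.3%). Without Mcl1Δhep 1 there were 12 (33.3% against 34.1%) and without WT 1 there were 15 (41.7% against 17.4%). With WT 1 left out, all WT libraries held Y-linked reads and no Mcl1Δhep library did, so genotype and these reads cannot be told apart. In the fits with the Y-linked term, without Mcl1Δhep 1 and without Mcl1Δhep 2 the 36 genes were called about as often as all genes. Scaling to hepatocyte markers gave the same picture (13.9% against 12.9%). They were called less often with the small structured RNA term, and in the fit of only WT and Mcl1Δhep (5.56% against 8.15%). DESeq2 on all 12 libraries called 16 (44.4% against 23.3%). Masp2, C2 and C4b were called in all 12 fits that left out 1 library, Plg in 11, F7 and Klkb1 in 10, Hc and Proc in 9, Masp1 in 8, F12 in 7, and C8a and F9 in 2.

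Against WT 1 alone, a single library, 19 of the 36 genes had every Mcl1Δhep library below it, against 30.7% of all genes, and 4 had every one above it, against 27.3%. Within Mcl1Δhep, library 1 had the highest value for 23 of the 36 genes, against 41.3% of all genes.

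**Figure D3:**
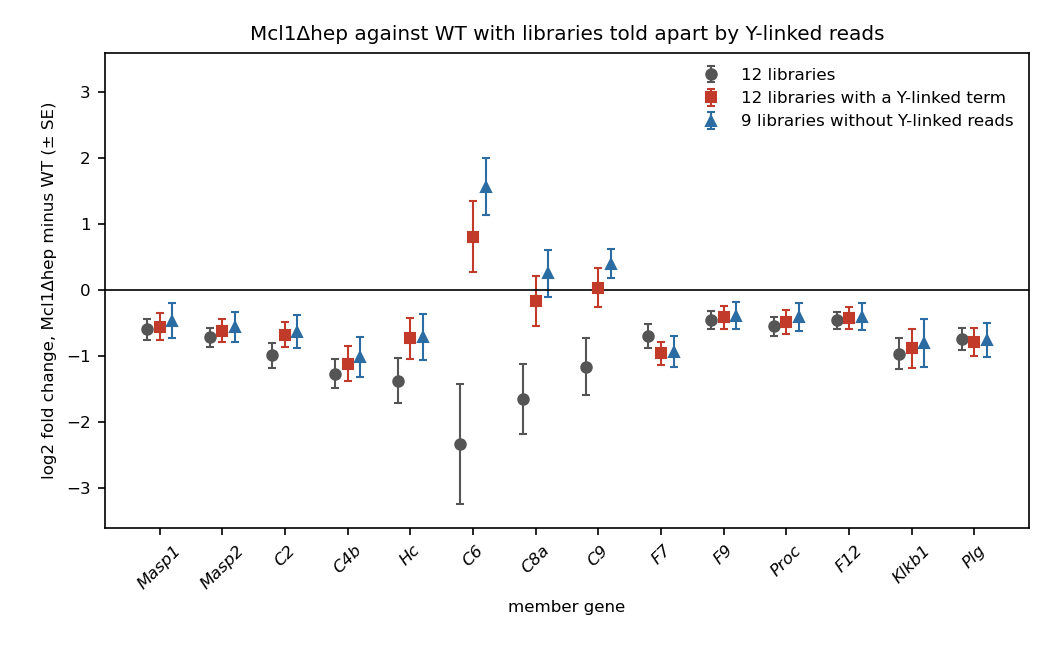
Log2 fold change of Mcl1Δhep minus WT with its SE for the 12 called genes, C6 and C9, from all 12 libraries, from 12 libraries with a term for Y-linked reads, and from the 9 libraries without such reads. C6 moves from -2.33 to 0.82 and 1.57 and C8a from -1.65 to -0.16 and 0.26, while F7 is at -0.69, -0.95 and -0.93.

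Most terminal complement genes were higher in the 3 libraries with Y-linked reads, WT 2, WT 3 and Mcl1Δhep Sting1-/- 1. In 5 of the 36 genes, Hc, C6, C8a, C8b and C9, all 3 libraries with Y-linked reads lay above all 9 without, against 2.27% of all genes, and in 1, Mbl2, all 3 lay below, against 1.71%. Outside WT this order was seen in Mcl1Δhep Sting1-/- 1 alone, and no Mcl1Δhep or Sting1-/- library was among those with Y-linked reads. C6 was at 270 to 447 CPM in the 3 libraries and 18.0 to 78.1 CPM in the other 9, a ratio of means of 9.21. C9 was at 674 to 1227 against 240 to 396 CPM, C8a at 975 to 1576 against 248 to 521 CPM, and C8b at 505 to 748 against 174 to 351 CPM. Hc was at 1371 to 2143 against 436 to 974 CPM, while C8g was at 251 to 371 against 213 to 462 CPM and showed no such split.

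In a fit with genotype and Y-linked reads as terms, 1.01% of all genes were called for the Y-linked term, and 3 of the 36 were among them. C6 had a log2 difference of 3.43 ± 0.47 (SE, edgeR adjusted p = 0.00428), C9 of 1.45 ± 0.26 (edgeR adjusted p = 0.0234) and C8a of 1.76 ± 0.34 (edgeR adjusted p = 0.0323). C8b was at 1.48 ± 0.33 (edgeR adjusted p = 0.0659), Hc at 0.87 ± 0.27 (edgeR adjusted p = 0.256) and Mbl2 at -0.66 ± 0.18 (edgeR adjusted p = 0.149). Within WT, C6 was 22.0 times as high in the mean of WT 2 and 3 as in WT 1, and within Mcl1Δhep Sting1-/- it was 5.33 times as high in library 1 as in the mean of the other 2. The labels give no sex, so these libraries are named by their reads.

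Among the 9 libraries without Y-linked reads, C6 was at 18.0 CPM in WT 1 and 18.0 to 24.2 CPM in Sting1-/-, and at 34.6 to 78.1 CPM in Mcl1Δhep and 49.1 and 52.4 CPM in Mcl1Δhep Sting1-/-. All 5 libraries with the deletion were therefore above all 4 without it, the opposite direction from the comparison of all WT and Mcl1Δhep libraries. In edgeR on these 9 libraries the C6 log2 fold change of Mcl1Δhep against WT 1 was 1.57 ± 0.43 (adjusted p = 0.154). This order was noticed after the values were seen and was not tested further.

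**Figure D4:**
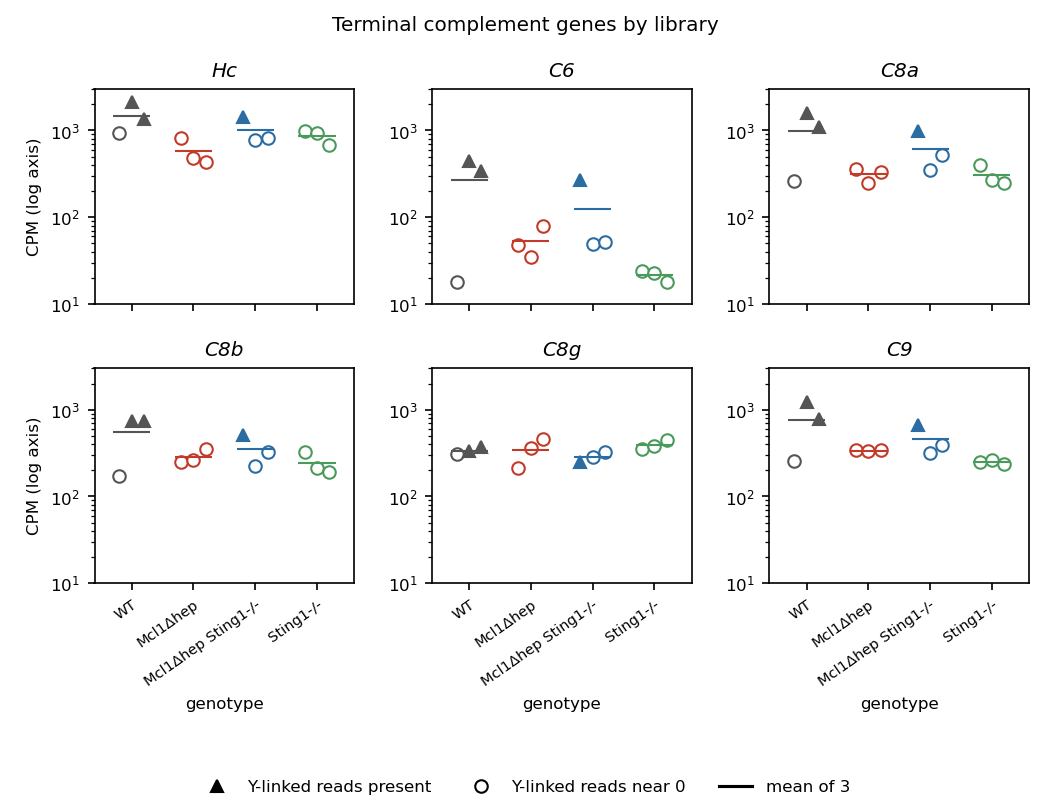
CPM on a log axis for the 6 terminal complement genes by genotype, with 1 symbol per library, filled triangles for libraries with Y-linked reads and a line at the mean of 3. In every panel but that of C8g the triangles lie above all circles, as for C6 with 270 to 447 against 18.0 to 78.1 CPM.

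Over the 12 libraries log2 CPM of C6, C8a, C8b and C9 had Pearson correlations of 0.922 to 0.967 with each other, and C8g had -0.0212 to -0.335 with the 5 other genes of this group. The median over all 630 pairs of the 36 genes was 0.348. These values describe the same 12 libraries and share their depth and genotype. C8a and C8b are neighbours on chromosome 4, at 104672876 to 104733614 and 104623328 to 104662573 of GRCm39, and C6 and C9 lie on chromosome 15 at 4756525 to 4844580 and 6474795 to 6547009, whereas C8g is on chromosome 2 at 25388657 to 25391771.

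The RefSeq promoters of the 4 genes that varied together are printed to show what sequence they share. Each runs 5′ to 3′ on the gene's strand from 250 bases before to 50 bases after the annotated start. Capitals mark letters of GTTAAT (part of the site of HNF1, a hepatocyte factor), TTGCNNAA (C/EBP), TTCNNNGAA (STAT) or CTGGGAA (the core of the interleukin-6 response element), searched on both strands, where N is any base.
C6, GRCm38.p6 chr15:4726960-4727259, plus strand: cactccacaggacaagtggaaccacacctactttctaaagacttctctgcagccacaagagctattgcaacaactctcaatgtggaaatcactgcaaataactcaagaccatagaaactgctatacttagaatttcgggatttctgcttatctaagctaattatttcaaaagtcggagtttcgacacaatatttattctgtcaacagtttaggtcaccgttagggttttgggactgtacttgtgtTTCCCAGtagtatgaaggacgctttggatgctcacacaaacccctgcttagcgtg
C8a, GRCm38.p6 chr4:104876349-104876648, minus strand: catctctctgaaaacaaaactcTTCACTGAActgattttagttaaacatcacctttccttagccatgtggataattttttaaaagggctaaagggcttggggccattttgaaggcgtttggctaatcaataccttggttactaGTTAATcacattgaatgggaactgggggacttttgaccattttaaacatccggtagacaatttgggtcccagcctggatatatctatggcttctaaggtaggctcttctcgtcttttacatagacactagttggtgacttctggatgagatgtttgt
C8b, GRCm38.p6 chr4:104766067-104766366, plus strand: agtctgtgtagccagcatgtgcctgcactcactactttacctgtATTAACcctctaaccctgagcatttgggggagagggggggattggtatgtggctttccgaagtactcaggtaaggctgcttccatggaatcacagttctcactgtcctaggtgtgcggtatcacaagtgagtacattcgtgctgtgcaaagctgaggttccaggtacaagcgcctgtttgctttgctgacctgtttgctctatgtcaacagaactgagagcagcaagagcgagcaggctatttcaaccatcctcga
C9, GRCm38.p6 chr15:6445096-6445395, plus strand: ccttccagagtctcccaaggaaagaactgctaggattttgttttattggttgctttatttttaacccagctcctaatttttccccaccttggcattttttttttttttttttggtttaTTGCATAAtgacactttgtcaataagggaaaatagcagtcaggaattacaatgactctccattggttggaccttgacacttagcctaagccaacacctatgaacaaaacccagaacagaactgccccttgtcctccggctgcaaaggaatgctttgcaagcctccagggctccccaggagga

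C8a and C8b each held 1 GTTAAT match, which began 107 and 206 bases before the start. C9 held 1 TTGCNNAA match, C6 held 1 CTGGGAA match, and C8a held a TTCNNNGAA match in addition. No motif of this set was in all 4 windows. Of the 36 genes 28 had a promoter in the table, and GTTAAT was in 9 of them (32.1%) against 7.1% of all 32851 promoters. TTGCNNAA was in 8 (28.6% against 10.8%), TTCNNNGAA in 7 (25.0% against 8.3%), CTGGGAA in 6 (21.4% against 11.1%) and TATAAA, the TATA box, in 4 (14.3% against 13.6%). Matches of TTCNNNGAA and CTGGGAA overlapped in Masp2, F9 and Vtn. A match is a run of letters and not a measured site.

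Fibrinogen, the most abundant of the clotting proteins and itself a protein of the acute phase, was not called in any comparison. Fga was at 5128, 6312 and 5100 CPM in WT and 7392, 4883 and 3267 CPM in Mcl1Δhep (log2 fold change -0.090 ± 0.29, 95% interval -0.72 to 0.54, edgeR adjusted p = 0.848). Fgb was at 4732, 5296 and 4812 CPM in WT and 6351, 5049 and 3287 CPM in Mcl1Δhep (log2 fold change -0.015 ± 0.25, 95% interval -0.57 to 0.54, edgeR adjusted p = 0.974). Fgg was at 3572, 4175 and 3634 CPM in WT and 4790, 4388 and 2878 CPM in Mcl1Δhep (log2 fold change 0.083 ± 0.23, 95% interval -0.43 to 0.59, edgeR adjusted p = 0.826). For all 3 chains Mcl1Δhep 1 was above and Mcl1Δhep 3 below every WT library.

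The 3 chains assemble into 1 protein and kept nearly fixed proportions. Their sum ranged from 9772 TPM in Mcl1Δhep 3 to 24590 TPM in Mcl1Δhep 1, with 15150 to 19760 TPM in WT and Sting1-/- libraries. Across the 12 libraries Fga made up 32.7 to 38.8% of the sum, Fgb 27.3 to 29.6% and Fgg 33.3 to 38.9%. The lowest Fga shares, 32.7 and 33.2%, and the highest Fgg shares, 38.9 and 38.7%, were those of Mcl1Δhep 2 and 3. Pearson correlations of log2 CPM between chains were 0.919 to 0.967 over 12 libraries.

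**Figure D5:**
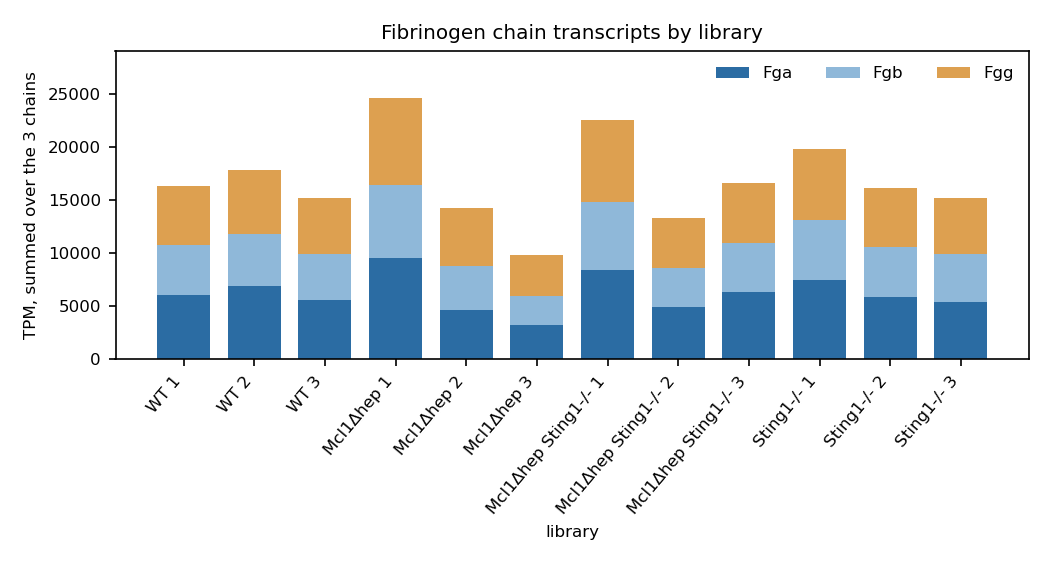
Stacked TPM of Fga, Fgb and Fgg in each of the 12 libraries. The sum runs from 9772 TPM in Mcl1Δhep 3 to 24590 TPM in Mcl1Δhep 1, the widest range of the 4 genotypes, while each chain keeps a similar share of the bar.

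The 3 genes lie next to each other on chromosome 3, between 82915030 and 82957170 of GRCm39. Their RefSeq promoters are printed with the same motifs in capitals, since the chains varied together across the livers.
Fga, GRCm38.p6 chr3:83025903-83026202, plus strand: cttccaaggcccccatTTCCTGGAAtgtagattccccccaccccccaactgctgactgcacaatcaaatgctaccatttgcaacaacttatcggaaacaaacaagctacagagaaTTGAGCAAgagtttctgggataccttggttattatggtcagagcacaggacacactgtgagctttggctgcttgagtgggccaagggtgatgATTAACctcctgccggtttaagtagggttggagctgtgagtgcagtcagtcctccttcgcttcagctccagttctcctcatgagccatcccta
Fgb, GRCm38.p6 chr3:83049814-83050113, minus strand: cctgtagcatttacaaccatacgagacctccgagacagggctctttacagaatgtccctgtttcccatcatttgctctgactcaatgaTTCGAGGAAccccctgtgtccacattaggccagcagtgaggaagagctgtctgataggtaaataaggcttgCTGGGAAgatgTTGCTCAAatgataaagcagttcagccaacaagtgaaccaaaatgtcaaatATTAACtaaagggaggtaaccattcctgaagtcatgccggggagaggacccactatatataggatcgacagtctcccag
Fgg, GRCm38.p6 chr3:83007474-83007773, plus strand: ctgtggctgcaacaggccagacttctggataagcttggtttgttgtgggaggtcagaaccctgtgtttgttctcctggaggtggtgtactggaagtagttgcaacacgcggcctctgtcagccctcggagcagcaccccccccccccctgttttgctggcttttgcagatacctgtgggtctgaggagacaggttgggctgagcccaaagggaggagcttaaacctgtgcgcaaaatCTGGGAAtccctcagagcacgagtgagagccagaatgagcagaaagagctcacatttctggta

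Fga and Fgb both held a TTCNNNGAA, a TTGCNNAA and a GTTAAT match, in this order toward the start, with GTTAAT beginning 43 and 29 bases before it. Fgb held CTGGGAA in addition, and Fgg held CTGGGAA as its single match, beginning 13 bases before the start.

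The second comparison asks what the loss of Sting1 did in livers without hepatocyte Mcl1. In Mcl1Δhep Sting1-/- against Mcl1Δhep livers 0 of the 36 genes were called by edgeR, as were 0.0% of all genes, and DESeq2 called 0 of the 36 and 4.77% of all genes. The log2 fold change was positive for 30 of the 36, with a median of 0.22 against -0.0020 for all genes. At an unadjusted p under 0.05 there were 7 of the 36, all higher, against 20.6% of all genes. Klkb1 was at 483, 448 and 526 CPM in Mcl1Δhep Sting1-/-, above all 3 Mcl1Δhep libraries, with a log2 fold change of 0.71 ± 0.23 (edgeR adjusted p = 0.155). C4b was at 1432, 1228 and 1542 CPM, likewise above all Mcl1Δhep libraries (0.63 ± 0.22, edgeR adjusted p = 0.162), and F5 had 0.69 ± 0.25 (edgeR adjusted p = 0.174). Plg was at 1970, 1937 and 2391 CPM, between the ranges of Mcl1Δhep and WT (0.40 ± 0.17, edgeR adjusted p = 0.217). Without Mcl1Δhep 1, edgeR called 6 genes higher, Masp1, C4b, Pros1, Klkb1, F5 and Plg (16.7% of the 36, against 20.2% of all genes). F7 was at 60.0, 82.5 and 82.3 CPM (0.10 ± 0.18, edgeR adjusted p = 0.776).

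The third comparison asks what the loss of Sting1 did in livers with Mcl1. In Sting1-/- against WT livers 0 of the 36 genes were called by edgeR, as were 0.0% of all genes. All Sting1-/- libraries lay below all WT libraries in 2 genes, Masp1 and C2, against 5.46% of all genes. They lay above them in 3, F2, F10 and Mbl2, against 7.06%. At an unadjusted p under 0.05 there were 7 of the 36, 6 of them lower, against 5.45% of all genes, and DESeq2 called 1, C9 (-1.58), and 0.264% of all genes. C6 had a log2 fold change of -3.64 ± 0.96 (edgeR adjusted p = 0.643), C8a of -1.68 ± 0.53 (edgeR adjusted p = 0.748) and C8b of -1.19 ± 0.46 (edgeR adjusted p = 0.820). In Sting1-/- libraries C8a was at 249.3 to 396.9 CPM and C8b at 325, 211 and 191 CPM, all below WT 2 and WT 3, with WT 1 within the C8a range and below the C8b range. WT 1, the WT library without Y-linked reads, was at 18.0 CPM for C6, at the lower end of Sting1-/- with 18.0 to 24.2 CPM, and at 253 CPM for C9, within 240 to 266 CPM. Without WT 1, edgeR called C6 (-4.19) and C9 (-1.99), and 0.143% of all genes. The WT libraries then all held Y-linked reads and no Sting1-/- library did, so genotype and these reads cannot be told apart there. The fibrinogen chains differed by 0.077 to 0.17 and the contact system genes by -0.28 to 0.10, and none of these was called.

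The fourth comparison, Mcl1Δhep Sting1-/- against Sting1-/-, asks for the effect of Mcl1 deletion where Sting1 was absent, and shares no library with the first. Here 0 of the 36 genes were called by edgeR and 0.803% of all genes were, with 4 of the 36 at an unadjusted p under 0.05 against 11.3% of all genes, and DESeq2 called 1, F7 (-0.74), and 2.95% of all genes. F7 was at 60.0, 82.5 and 82.3 CPM in Mcl1Δhep Sting1-/- and at 129, 139 and 109 CPM in Sting1-/-, without overlap, with a log2 fold change of -0.74 ± 0.18 (edgeR adjusted p = 0.0886). C4b had -0.20 ± 0.22, Klkb1 -0.22 ± 0.23, Plg -0.25 ± 0.17 and Masp2 -0.23 ± 0.14, each closer to 0 than its value with Sting1. C6 was at 270, 49.1 and 52.4 CPM against 24.2, 22.5 and 18.0 CPM, a log2 fold change of 2.52 ± 0.92 (edgeR adjusted p = 0.297) with all 3 libraries above. The median over the 36 genes was -0.16, against -0.0090 for all genes, and it was 0.0054 against 0.142 when libraries were scaled to hepatocyte markers. All Mcl1Δhep Sting1-/- libraries lay below all Sting1-/- libraries in 9 genes, against 10.8% of all genes, and above them in 4, C4bp, C6, C9 and Pros1, against 11.5%.

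Set side by side, 21 of the 36 genes had a negative log2 fold change with the deletion in both backgrounds, 1 had a positive one in both, 10 had a negative one with Sting1 and a positive one without, and 4 the reverse. In the Sting1-/- background the sign was negative for 8 of the 12 genes called with Sting1, for 25 of the 36 and for 51.5% of all genes, and none of the 12 was called there. The difference between the 2 Mcl1 effects was itself tested, and edgeR called 0 of the 36 genes and 0.0% of all genes. At an unadjusted p under 0.05 there were 12 of the 36, all positive, that is less negative or more positive without Sting1, against 14.4% of all genes, and DESeq2 called 3, C6 (4.85), C8a (2.67) and C9 (2.03), and 1.15% of all genes. C2 had a difference of 0.99 ± 0.28 (edgeR adjusted p = 0.255) and C4b of 1.06 ± 0.31 (edgeR adjusted p = 0.260). These differences also hold the change from WT to Sting1-/-, which was -0.68 ± 0.20 for C2 and -0.44 ± 0.22 for C4b. From Mcl1Δhep to Mcl1Δhep Sting1-/- the change was 0.30 ± 0.195 for C2 and 0.63 ± 0.22 for C4b. With Y-linked reads as a term, 1 of the 36 genes had an unadjusted p under 0.05, and the share of all genes in that fit is not given here. Without Mcl1Δhep 1 edgeR called 6 of the 36 and 10.2% of all genes. Without WT 1, where all WT libraries left held Y-linked reads, it called 3 and 0.573%.

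Other genes of the 2 cascades, 57 genes made by many cell types, moved in both directions in Mcl1Δhep against WT. Of the 55 that could be tested 18 were higher and 7 lower by edgeR, with a median log2 fold change of 0.14. The C1q chains C1qa, C1qb and C1qc, made mostly by macrophages, rose by 0.97, 0.97 and 0.75 on the log2 scale, while the proteases C1ra and C1s1, made by hepatocytes and bound by C1q, fell by 1.03 and 0.75 on the log2 scale. C1qa was at 66.8 ± 18.6 CPM in WT and 131 ± 21.6 in Mcl1Δhep, and C1ra at 318 ± 52.0 and 156 ± 39.1 (SD, n = 3). The C1q chains moved with the macrophage markers given above and C1ra and C1s1 in the other direction, and the part of cell numbers was not tested.

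Genes called in this list included those of fibrinolysis and of receptors on leukocytes. Plat, the tissue plasminogen activator, had a log2 fold change of 1.81 ± 0.35 (SE) in Mcl1Δhep against WT, and Plaur, the receptor of urokinase, had one of 2.24 ± 0.29 (edgeR adjusted p = 0.00644 and 0.00133). Anxa2, which binds plasminogen at the cell surface, had a log2 fold change of 2.53 ± 0.35, and F13a1, the enzyme subunit of factor XIII made by macrophages and platelets, had 2.48 ± 0.59 (edgeR adjusted p = 0.00163 and 0.0149). C5ar1, the receptor of C5a, had a log2 fold change of 1.83 ± 0.34 and Itgax, a chain of complement receptor 4, had 1.65 ± 0.33 (edgeR adjusted p = 0.00566 and 0.00700). Levels of most of these genes were low in WT. Plat was at 1.37 ± 0.594 CPM there, Plaur at 0.581 ± 0.023 and F13a1 at 0.744 ± 0.669 (SD, n = 3). C5ar1 was at 1.125 ± 0.480, Itgax at 2.25 ± 0.845 and Anxa2 at 15.7 ± 3.47 CPM. Serpina5, an inhibitor of protein C, was at 0.410 ± 0.291 CPM in WT and 0.0622 ± 0.0010 in Mcl1Δhep (edgeR adjusted p = 0.0435), with too few reads for a firm fold. In the other 4 comparisons 0 genes of this list were called by edgeR.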

How the data were processed

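Total RNA-seq of 12 livers was analyzed from the counts deposited by the authors, which are raw reads summed for each Ensembl identifier. Per the labels' processing notes they were made with STAR and featureCounts on GRCm39, and versions, annotation, strand and the handling of multimapping reads are not given in the sources used here. Genotype and replicate came from the labels. CPM with TMM factors and log2 fold changes were computed with edgeR 4.0.16 in R 4.3.3 (glmQLFit, glmQLFTest, filterByExpr by genotype, all 12 libraries, no covariate), with Benjamini-Hochberg adjustment over 15070 genes and a threshold of 0.05. A prior count of 2 was used only for the log2 CPM of the correlations between libraries of the same replicate number. DESeq2 1.42.0 was an alternative. On counts simulated for Mcl1Δhep against WT with a log2 change of 2, edgeR recovered 171 of 198 changed genes with 4 false calls among 15008, and DESeq2 recovered 181 of 200 with 21 among 15338. The called genes of the 36 changed by less, from -0.44 to -1.65, and recovery at such sizes was not simulated. TPM used summed exon lengths of GENCODE (GRCm39), found for 39533 genes, and the other 1018 took at most 0.101% of counts. Promoters were those of RefSeq (GRCm38.p6).

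Depth was 28826367 to 45266387 counts, so that 3 livers per group and not counting error limited the precision. No library pair of a group agreed within sampling noise (chi-square per degree of freedom 43.2 to 314 over 12 pairs). Members, lists and tests were chosen with earlier results of these data known. Values or ranges in the libraries of a comparison were given for genes called in it, those with an absolute log2 fold change of 1 or more, the fibrinogen chains and C3, and for the other genes of the cascades the 8 largest changes among those called were named. Alternatives were RLE factors, scaling to hepatocyte markers, other filters, terms for Y-linked reads and for small structured RNAs, a replicate block, fits of 2 genotypes, and leaving out each library. Hepatocyte scaling used the summed counts of the marker list, in which Alb was highest, at 117100, 59840 and 81550 CPM in WT 1, 2 and 3. A gene of the list of other complement and coagulation genes is counted but not reported here by name.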

Additional observations from a re-analysis of the deposited data

How the results depend on the processing

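In Mcl1Δhep against WT 12 genes were called (33.3% of the 36, against 20.2% of all genes). RLE factors gave 12 (33.3% against 20.3%) and no filter 10 (27.8% against 10.7%). A mean of at least 1 CPM gave 11 (30.6% against 20.9%) and DESeq2 16 (44.4% against 23.3%). Scaling to hepatocyte markers gave 5 (13.9% of the 36, against 12.9% of all genes) and a term for Y-linked reads 4 (11.1% against 10.2%). A term for small structured RNAs gave 0 (against 2.7%), and the fit of only these 2 genotypes 2 (5.56% against 8.15%). The 9 libraries without Y-linked reads, an alternative chosen after seeing the data, left a single WT library. They gave a median of -0.237 for the 36 genes. Leaving out 1 library at a time gave 3 to 15 in Mcl1Δhep against WT and 0 to 6 in Mcl1Δhep Sting1-/- against Mcl1Δhep. It gave 0 to 2 in Sting1-/- against WT, 0 to 0 in Mcl1Δhep Sting1-/- against Sting1-/-, and 0 to 6 for the difference of the Mcl1 effects. DESeq2 on all libraries called 1, 1 and 3 in the last 3 of these comparisons, where edgeR called 0. DESeq2 called 0.264, 2.95 and 1.15% of all genes in them. With 1 library left out, the share of all genes was 17.4% at the count of 15 (without WT 1) and 8.09% at 3 (without Mcl1Δhep 2). It was 20.2 and 10.2% at the 2 counts of 6 (without Mcl1Δhep 1), and 0.143% at 2 (without WT 1). The cause of these shifts was not tested. Hepatocyte scaling moved the median of all genes in Mcl1Δhep Sting1-/- against Mcl1Δhep to -0.119, in Sting1-/- against WT to -0.216, and in Mcl1Δhep Sting1-/- against Sting1-/- to 0.142, with medians of the 36 genes of 0.0961, -0.289 and 0.00543.

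Values of single genes changed sign where the Y-linked libraries were told apart. In Mcl1Δhep against WT, the term for Y-linked reads gave 0.82 for C6 and 0.040 for C9, and the 9 libraries gave 1.57 for C6, 0.26 for C8a and 0.41 for C9. In Mcl1Δhep Sting1-/- against Mcl1Δhep, C6 was at -0.35 with the term, -0.071 in the 9 libraries, and -0.077 to 1.59 when 1 library was left out, with the lowest value without Mcl1Δhep Sting1-/- 1. In Sting1-/- against WT, C8b was at 0.045 with the term, and the 9 libraries gave 0.27 for C6, 0.23 for C8a and 0.48 for C8b. For the difference of the Mcl1 effects, C8b was at -0.28 with the term, and the 9 libraries gave -0.34 for C6 and -0.53 for C8b.

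Replicate numbers did not pair the livers, since 18 pairs of the same number had correlations of -0.541 to 0.251 with 3 over 0.1. With the replicate number as a block, 10 of the 36 genes (27.8%) were called in Mcl1Δhep against WT, against 17.2% of all genes. C8a and F9 were not among them, and 0 of the 36 were called in the other 4 comparisons.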

Other observations

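Acute phase proteins of the liver, of which fibrinogen is one, were followed as a list of 14 genes. In Mcl1Δhep against WT 0 of them were higher and 1 was lower by edgeR, with a median log2 fold change of -0.51, and in the other 4 comparisons 0 were called. The gene called was Crp, C-reactive protein, at 301, 210 and 254 CPM in WT 1, 2 and 3 and at 135, 141 and 191 CPM in Mcl1Δhep 1, 2 and 3 (log2 fold change -0.71 ± 0.20, edgeR adjusted p = 0.0269). Saa1, serum amyloid A, was at 25.9, 1474 and 59.4 CPM in WT and at 28.4, 133 and 75.6 CPM in Mcl1Δhep, so that WT 2 stood far above the other WT libraries. Hp, haptoglobin, was at 2057, 5838 and 3117 CPM in WT and 1734, 3503 and 2286 CPM in Mcl1Δhep, with WT 2 again highest. WT 2 was also the highest WT library for all 3 fibrinogen chains, by a smaller margin.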
